A study of Mus musculus with 7 samples.

Results

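The genes of DNA replication and S phase were examined in myoblasts that lack Hmga2 and in wild type myoblasts. They are 51 genes chosen by function: origin recognition and licensing, the MCM proteins, helicase activation, DNA polymerases and primase, the sliding clamp and its loader, single-strand binding and Okazaki fragment joining, nucleotide synthesis, chromatin assembly with histone mRNA processing, and the E2F transcription factors. Of the 51, 50 were paired with a probe set of their own among the 18193 genes measured, and each was represented by its brightest probe set. Chaf1a was not analysed here. RNA came from the myoblasts of Hmga2 KO mice (HMGA2 -/-, 4 samples, with replicates 1 and 3 male and replicates 2 and 4 female) and of wild type mice (3 samples, all female). All 7 samples are of the C57BL/6 strain and carried no treatment. By their labels the samples are biological replicates. Neither the age of the mice nor the way the Hmga2 allele was made is given in the sources used here. Myoblasts are the dividing precursors that fuse into skeletal muscle fibres, and leave the cell cycle as they do so. Values are probe set intensities, or differences in log2(intensity + 1) between the genotypes, Hmga2 KO minus wild type, and in each group they are listed in the order of the replicate numbers.

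Replication begins in G1 phase, when the origin recognition complex, Cdc6 and Cdt1 load the MCM helicase onto DNA. In S phase the kinase Cdc7 with its subunit Dbf4, together with Cdc45 and the GINS complex, turns the loaded helicase into an active one, and the polymerases, the PCNA clamp and its loader copy the strands it opens. Many of these genes are transcribed in late G1 and S phase under E2F factors, so their summed RNA level in a culture is widely used as a measure of proliferation.

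Because E2F sites are the sequence feature that this gene group is best known for, promoters were searched for the letters TTTCCCGC, TTTCGCGC, TTTGCCGC and TTTGGCGC on both strands, within 250 bases before the start site. Of the 51 genes, 44 were in the RefSeq promoter table (assembly GRCm38.p6), with 54 promoters. A match was present in 10 of the 54 (18.5%), against 1.86% of all 32851 promoters in the table. The letters CCAAT were present in 57.4% of the 54, against 33.8% of all promoters. The letters TTTGAA or TTCGAA, those of the cell cycle genes homology region known from mitosis genes, were in 20.4%, against 17.1%. A match describes letters and does not show that a factor binds there, and a missing match does not show that a site is absent. The genes with an E2F match were Cdc6, E2f3, Gins3, Mcm5, Mcm6, Mcm7, Orc1, Pola1, Rfc3 and Uhrf1. The 200 bases before the start site are printed, 5′ to 3′ on the strand of the gene, for the 5 of them whose difference between the genotypes had an unadjusted p under 0.05. They are Cdc6 (chr11:98907951-98908150, plus strand), Mcm5 (chr8:75109309-75109508, plus strand), Mcm6 (chr1:128359706-128359905, minus strand), Mcm7 (chr5:138171884-138172083, minus strand, 1 of its 2 promoters) and Pola1 (chrX:93632156-93632355, minus strand). Uhrf1 (chr17:56304113-56304312, plus strand, 1 of its 2 promoters) is added as a gene with a match and a small difference. Capitals mark the E2F letters, read on either strand, and matches that overlap run together.
Cdc6: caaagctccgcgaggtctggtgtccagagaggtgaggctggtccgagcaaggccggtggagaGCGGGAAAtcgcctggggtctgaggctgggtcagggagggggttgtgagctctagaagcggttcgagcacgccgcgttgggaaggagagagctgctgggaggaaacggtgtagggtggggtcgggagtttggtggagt
Mcm5: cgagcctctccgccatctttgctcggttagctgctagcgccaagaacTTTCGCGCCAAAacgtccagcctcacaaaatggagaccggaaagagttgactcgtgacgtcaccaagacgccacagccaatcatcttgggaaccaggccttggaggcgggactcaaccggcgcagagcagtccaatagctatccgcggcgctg
Mcm6: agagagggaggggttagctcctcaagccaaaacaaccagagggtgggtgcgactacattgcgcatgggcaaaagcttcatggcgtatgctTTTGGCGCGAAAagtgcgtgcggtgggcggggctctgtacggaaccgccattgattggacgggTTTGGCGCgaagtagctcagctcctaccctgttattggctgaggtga
Mcm7: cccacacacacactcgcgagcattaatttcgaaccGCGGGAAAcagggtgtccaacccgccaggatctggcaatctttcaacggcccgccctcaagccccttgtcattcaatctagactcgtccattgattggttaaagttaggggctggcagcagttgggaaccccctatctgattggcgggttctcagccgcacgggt
Pola1: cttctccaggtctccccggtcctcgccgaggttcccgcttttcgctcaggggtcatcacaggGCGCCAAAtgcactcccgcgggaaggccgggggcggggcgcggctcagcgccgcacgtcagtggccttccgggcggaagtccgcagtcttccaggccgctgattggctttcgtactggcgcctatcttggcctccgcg
Uhrf1: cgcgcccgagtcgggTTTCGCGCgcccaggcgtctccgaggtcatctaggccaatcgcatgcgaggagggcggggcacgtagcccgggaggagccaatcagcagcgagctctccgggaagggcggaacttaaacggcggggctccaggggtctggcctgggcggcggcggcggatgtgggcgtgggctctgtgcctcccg
Relative to the start site, the 3 matches of Mcm6 begin at bases -110, -106 and -47, the first 2 of them overlapping, and the 2 overlapping matches of Mcm5 at -153 and -149. The single match begins at -138 in both Cdc6 and Pola1, at -165 in Mcm7 and at -185 in Uhrf1.

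Hmga2 itself was measured first, as a check of the labels. Its intensity was 96.6, 85.7, 96.7 and 104 in Hmga2 KO, against 11999, 9998 and 12800 in wild type, a difference of -6.90 (SE 0.115, limma, adjusted p = 1.00e-08). An exact permutation test over the 35 splits, two-sided, gave p = 0.0286, and no smaller p is possible with these group sizes. All 10 myoblast markers examined, Myod1 and Pax7 among them, had a mean intensity above 150, the median of every array. Markers of differentiated muscle were bright as well, with 11 of 12 above 150, while 0 of 8 leukocyte markers and 1 of 8 endothelial markers (Egfl7) were. The 3' to 5' ratio of the Actb control, a sign of RNA integrity, was 1.61 to 1.74 in 6 samples and 1.94 in wild type replicate 2. Only 5 of 18193 genes passed an adjusted p of 0.05 between the genotypes by limma, Hmga2 included. The number of arrays limits the precision of every value.

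None of the 50 replication and S-phase genes passed that threshold, while nearly all of them had a lower mean in Hmga2 KO. The share of all genes past it was 0.0275%, or 0.0165% counting lower ones, and the smallest adjusted p among the 50 was 0.223, that of Pold2 (limma). At an unadjusted p under 0.05, 20 were lower and 0 higher in Hmga2 KO, against 10.3% of all genes lower and 2.99% higher. Since all 50 are brighter than the dimmest 40% of genes, the background without those dim genes is also relevant, and there 13.8% were lower at such a p. The difference was below 0 for 49 of the 50, where 67.6% of all genes had a difference below 0 (70.9% without the dim genes). The median difference was -0.29 on the log2 scale for the 50 and -0.07 for all genes, which leaves -0.22 between them, and 47 of the 50 lay below the all-gene median. The range was narrow, from -0.49 for Chaf1b to 0.00 for Rrm2, as the plot of differences by role group shows. For 12 genes every Hmga2 KO sample lay below every wild type sample, and for 0 every one lay above, against 9.29% of all genes with such a gap downwards (11.1% without the dim genes). Those 12 were Mcm5, Mcm6, Mcm7, Pola1, Pola2, Pold1, Pold2, Pole, Rfc5, Rpa1, Chaf1b and E2f8. In bulk RNA, fewer cells in S phase and less RNA of these genes per cell cannot be told apart.

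**Figure D1:**
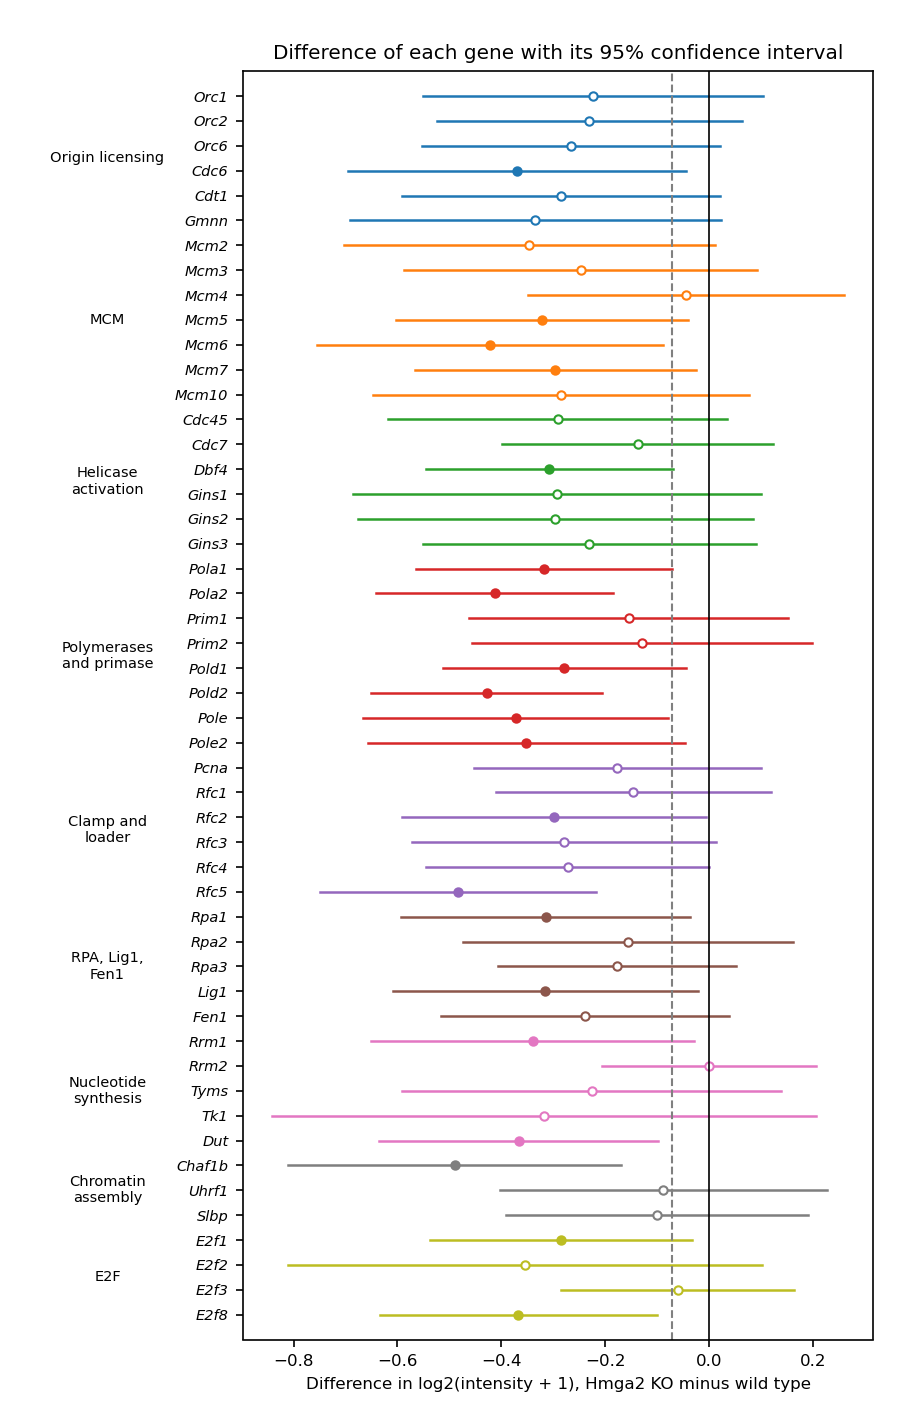
Difference in log2(intensity + 1), Hmga2 KO minus wild type, for each of the 50 genes (rows, grouped by role), as a point with its 95% confidence interval. Filled points have an unadjusted p under 0.05, colours mark the role groups, and the dashed line is the median of all 18193 genes (-0.07). All points but Rrm2 (0.00) lie left of 0, 20 are filled and the lowest is Chaf1b (-0.49).

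The samples of a genotype were not alike in the level of these genes. Averaged over the 50 genes, the deviation of a sample from the 7-sample mean, in log2 units, was 0.02, -0.11, -0.20 and -0.17 in Hmga2 KO, against 0.14, -0.02 and 0.34 in wild type. The group means were -0.12 ± 0.10 (SD, n = 4) in Hmga2 KO and 0.15 ± 0.18 (SD, n = 3) in wild type. Hmga2 KO replicates 2, 3 and 4 lay below every wild type sample, and Hmga2 KO replicate 1 lay just above wild type replicate 2, the sample with the highest Actb 3' to 5' ratio. Wild type replicate 3 was the highest of the 7 samples in 41 of the 50 genes, although it was the highest in 29.5% of all genes. Hmga2 KO replicate 4 was the lowest in 22 genes (16.2% of all genes) and Hmga2 KO replicate 3 in 20 (20.9% of all genes). Hmga2 KO replicate 1 was the lowest in 0 of the 50, although it was the lowest in 21.3% of all genes. Without wild type replicate 3, 5 genes had an unadjusted p under 0.05 (5.5% of all genes did so downwards), the median difference was -0.19, and 47 of 50 were still below 0. Those 5 were Pola2, Pold2, Rfc5, Chaf1b and E2f8. Leaving out Hmga2 KO replicate 3 gave 11 genes lower at such a p (6.61% of all genes), and leaving out Hmga2 KO replicate 4 gave 10 (6.56%). Leaving out wild type replicate 2 gave 28 (8.4% of all genes), as did leaving out Hmga2 KO replicate 1 (8.55%). After quantile normalization of the arrays it was 9 genes, against 6.47% of all genes. The number of genes with no overlap between the genotypes was 12 without wild type replicate 3 (11.8% of all genes), but 33 without wild type replicate 2 (17.2% of all genes) and 27 without Hmga2 KO replicate 1 (13% of all genes).

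**Figure D2:**
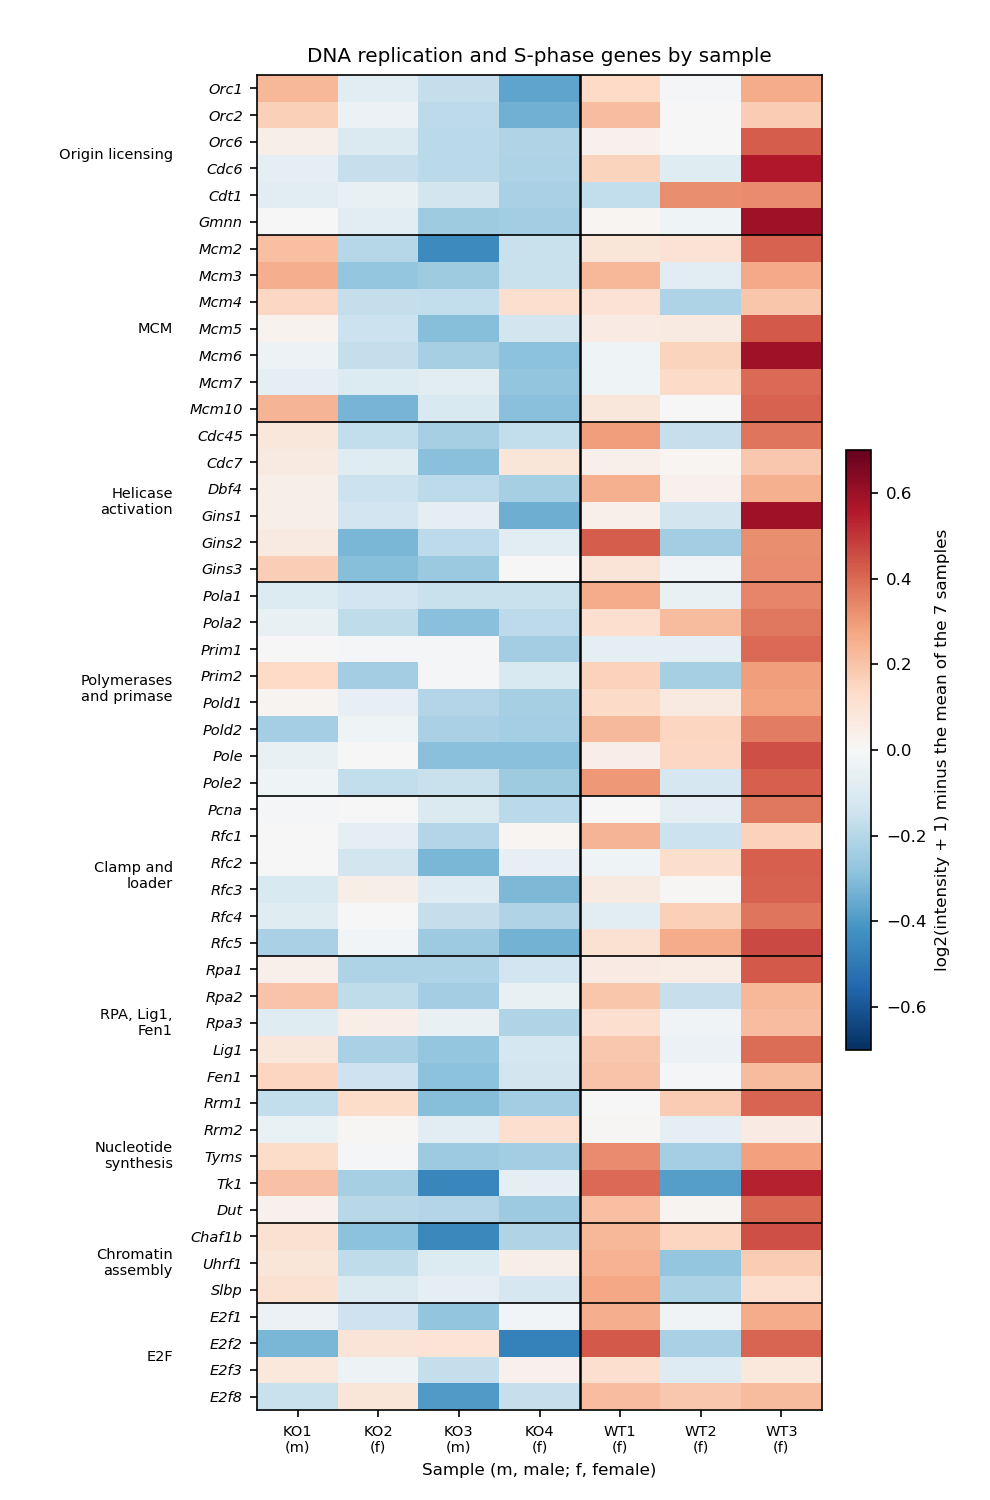
Heat map of log2(intensity + 1) minus the mean of the 7 samples for each of the 50 genes (rows, grouped by role) in each sample (columns; m, male; f, female). The column of wild type replicate 3 is the reddest, with the highest value in 41 genes (29.5% of all genes). The columns of Hmga2 KO replicates 3 and 4 hold the lowest value in 20 and 22 genes (20.9% and 16.2% of all genes).

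Sex differs between the groups, since all wild type samples are female. Among the 5 females alone the pattern was of like size: the median difference was -0.32, 49 of 50 genes were below 0 (62.8% of all genes), and 13 were lower at an unadjusted p under 0.05 (4.64% of all genes). The groups did not overlap for 28 genes in females (16.1% of all genes), and 0 passed the adjusted threshold (0.0275% of all genes, limma). With sex in the model the differences are those of the females, with 0 genes past the adjusted threshold (0.022% of all genes, limma) and again 13 lower at an unadjusted p under 0.05 (5.13% of all genes). Between male and female Hmga2 KO samples, 0 of the 50 genes passed at an adjusted p (0.0385% of all genes) or had an unadjusted p under 0.05 (6.3% of all genes) by limma. Their male minus female differences had a median of 0.06 and ran from -0.24 for E2f8 to 0.37 for Mcm10, with 38 above 0 and 12 below.

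Markers of other cell states and cell types also differed from sample to sample, and their part in the result was not tested. Differentiated muscle markers had a mean deviation of -0.98, 0.22, -0.36 and -0.12 in Hmga2 KO, against 0.15, 0.69 and 0.41 in wild type. Their summed intensity ran from 28780 to 70480 in Hmga2 KO and from 61348 to 88573 in wild type. All 12 had a lower mean in Hmga2 KO, 8 of them at an unadjusted p under 0.05, against 10.3% of all genes. Among females alone the differences of the 12 ran from -0.96 for Myh8 to 0.02 for Myh1. Within Hmga2 KO, their male minus female differences ran from -1.16 for Actn2 to 0.14 for Ckm. Hmga2 KO replicates 1 and 3, the males, had the lowest muscle markers of the 7 samples. The replication genes of these samples were the highest and the lowest within Hmga2 KO, at 0.02 and -0.20. For fibroblasts and fibro-adipogenic progenitors, which share the tissue with myoblasts, the marker mean was 0.47, -0.07, 0.13 and 0.04 in Hmga2 KO, against -0.02, -0.26 and -0.29 in wild type. Their summed intensity was 24236 to 26360 in Hmga2 KO and 21109 to 22220 in wild type, with 8 of 11 above 150. Of these 11, 10 had a higher mean in Hmga2 KO and 4 an unadjusted p under 0.05, all higher (2.99% of all genes). Those 4 were Mgp, Smoc2, Islr and the dim Dcn. Mgp had a mean intensity of 4581 in Hmga2 KO and 2750 in wild type, and Smoc2 had 335 in Hmga2 KO and 95.9 in wild type, both without overlap. Islr had 1785 in Hmga2 KO and 1019 in wild type. The markers Dcn, Lum and Dpt were dim, with 73.6, 55.4 and 48.5 in Hmga2 KO and 58.6, 54.1 and 47.5 in wild type. Pdgfra was brighter, with 301 in Hmga2 KO and 217 in wild type. It reached 620 in Hmga2 KO replicate 1 and 383 in wild type replicate 1. Cd34 had 211 in Hmga2 KO and 145 in wild type, with 527 in Hmga2 KO replicate 1. The marker with a lower mean in Hmga2 KO was Col1a1, with 1093, against 1392 in wild type. Its samples had 2189, 69.0, 1061 and 1052 in Hmga2 KO, against 2891, 734 and 552 in wild type. That low value weighs on the list mean of Hmga2 KO replicate 2, which was the highest sample in 6 of the 11 markers (9.42% of all genes). The median deviation of the list was 0.05, 0.16, 0.22 and 0.05 in Hmga2 KO, against -0.06, -0.11 and -0.15 in wild type. Smooth muscle and pericyte markers, of which 5 of 8 were above 150, had a mean deviation of 0.20, 0.07, 0.24 and -0.04 in Hmga2 KO, against -0.20, 0.11 and -0.37 in wild type. Their summed intensity was 22836 to 32175 in Hmga2 KO and 20626 to 29437 in wild type. Of these 8, 5 had a higher mean in Hmga2 KO, and the 1 with an unadjusted p under 0.05 was Rgs5, a pericyte marker, with 9508, 10109.7, 11001 and 5946 in Hmga2 KO, against 3078, 6701 and 949 in wild type. Myoblast markers had a mean deviation of -0.32, 0.27, -0.08 and -0.10 in Hmga2 KO, against 0.00, 0.11 and 0.12 in wild type. The genotypes differed by -0.13 in this list, with single markers from -0.60 for Itga7 to 0.64 for Myf5. Of its 10 markers, 3 had a higher mean in Hmga2 KO. The 2 with an unadjusted p under 0.05 (10.3% of all genes), Vcam1 and Chrna1, were lower. The mean deviation differed between the genotypes by -0.11 for the endothelial list and 0.04 for the leukocyte list.

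**Figure D3:**
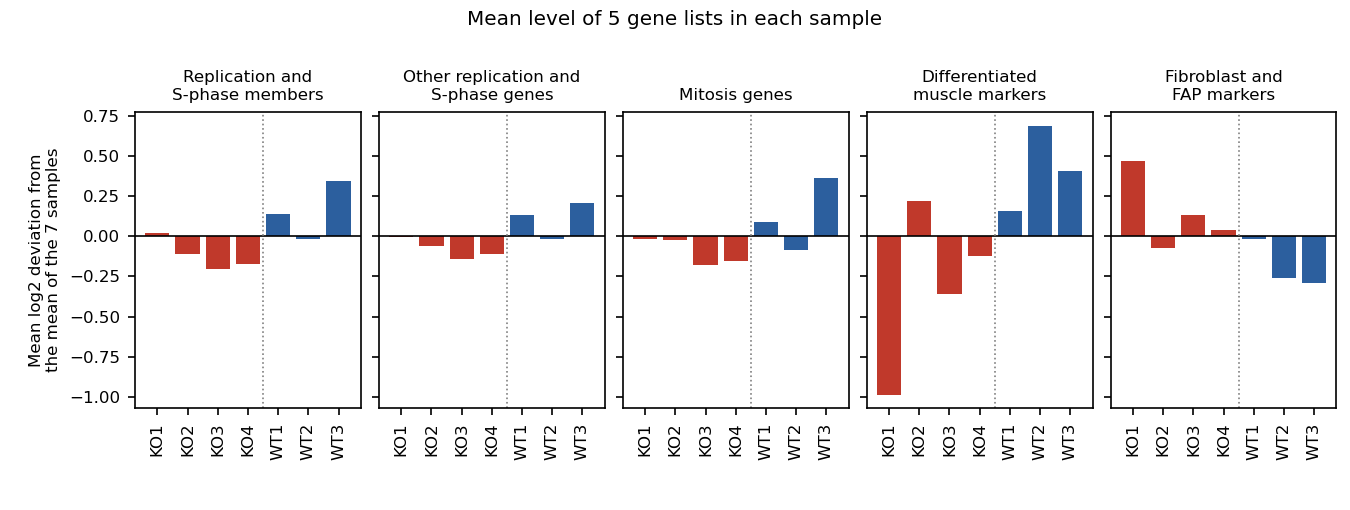
Mean log2 deviation from the mean of the 7 samples for 5 gene lists (panels) in each sample (bars; red, Hmga2 KO; blue, wild type). Replication genes, other S-phase genes and mitosis genes are highest in wild type replicate 3 and lowest in Hmga2 KO replicate 3, while the differentiated muscle markers are lowest in Hmga2 KO replicate 1 (-0.98).

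The factors that load the helicase had a lower mean in Hmga2 KO in 6 of 6 cases, with a median difference of -0.28. The groups did not overlap for 0 of 6, against 9.29% of all genes, and 1 of 6 had an unadjusted p under 0.05, against 10.3%. The gene with such a p was Cdc6, the ATPase that joins the origin recognition complex to recruit MCM. Its intensity was 464, 433, 424 and 416 in Hmga2 KO, against 540.4, 458 and 714 in wild type, a difference of -0.37 (SE 0.144, adjusted p = 0.337, limma). Wild type replicate 2 lay just under the highest Hmga2 KO sample, so the groups overlapped. Cdt1, which brings MCM to the origin, had 3914, 3978, 3776 and 3526 in Hmga2 KO, against 3665, 5185 and 5203 in wild type. Wild type replicates 2 and 3 were far above the Hmga2 KO samples and wild type replicate 1 was within their range, with a difference of -0.29. Gmnn encodes geminin, the inhibitor of Cdt1, and differed by -0.33. It is the clearest case of a single high sample, with 1302, 1238, 1099 and 1100.5 in Hmga2 KO, against 1315, 1278 and 1967 in wild type. Among the subunits of the origin recognition complex, Orc1 differed by -0.22, Orc2 by -0.23 and Orc6 by -0.27. Orc1 was the dimmest of the 50 genes, with 205, 165, 155 and 135 in Hmga2 KO, against 192, 173 and 209 in wild type.

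All 7 MCM genes had a mean below wild type, by a median of -0.30. Of these, 3, Mcm5, Mcm6 and Mcm7, had an unadjusted p under 0.05 (10.3% of all genes) and groups that did not overlap (9.29% of all genes). Mcm2 to Mcm7 form the ring-shaped helicase. Mcm6 had 2351, 2142, 2048 and 1971 in Hmga2 KO, against 2360.1, 2686 and 3626 in wild type, a difference of -0.42 (95% interval -0.75 to -0.088, adjusted p = 0.307, limma). The gap between the groups was thin, since Hmga2 KO replicate 1 and wild type replicate 1 were nearly equal and wild type replicate 3 stood well above the rest. Mcm5 had 974, 863, 780.2 and 877 in Hmga2 KO, against 996, 1002 and 1291 in wild type, a difference of -0.32 (adjusted p = 0.336, limma). Mcm7 had 2082, 2029.8, 2064 and 1794 in Hmga2 KO, against 2129, 2387 and 2863 in wild type, a difference of -0.30 (adjusted p = 0.344, limma). Here too the highest Hmga2 KO sample came close to the lowest wild type sample. Mcm2 differed by -0.35 and Mcm3 by -0.25, with Hmga2 KO replicate 1 inside the wild type range in both. Mcm4, the brightest of the MCM genes, had 11901, 9592, 9529 and 11671 in Hmga2 KO, against 11517, 9258 and 12282 in wild type. Its difference was -0.044, with a 95% interval of -0.35 to 0.26 that holds no difference and also the difference of every other ring subunit except Mcm6. Mcm10, a separate factor that helps to start unwinding, differed by -0.29, and it had the widest gap between the sexes among the 50, with 501 and 393 in male and 339 and 346 in female Hmga2 KO.

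The factors that activate the helicase had 6 of 6 means below wild type, with a median of -0.29. The groups did not overlap for 0 of 6 (9.29% of all genes), and 1, Dbf4, had an unadjusted p under 0.05 (10.3%). Dbf4 is the regulatory subunit of the Cdc7 kinase, which phosphorylates MCM proteins. Its intensity was 4568, 4007, 3914 and 3788 in Hmga2 KO, against 5279.6, 4537 and 5294 in wild type, a difference of -0.31 (SE 0.105, adjusted p = 0.305, limma). All but Hmga2 KO replicate 1 lay below the wild type samples, and that sample passed wild type replicate 2 by a small margin. Cdc7 itself had 1689, 1522, 1318 and 1714 in Hmga2 KO, against 1659, 1629 and 1842 in wild type, a difference of -0.14. Hmga2 KO replicate 4 was the second highest of the 7 samples. Cdc45, which joins MCM in the active helicase, differed by -0.29. The GINS subunits Gins1, Gins2 and Gins3 differed by -0.29, -0.30 and -0.23. Gins1 had 948, 838, 879.7 and 727 in Hmga2 KO, against 944, 841 and 1392 in wild type, so that the wild type mean rests on replicate 3.

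Replicative polymerases and primase were the role group with the most small p-values, with a median difference of -0.34. Of these genes 6 of 8 had an unadjusted p under 0.05 (10.3% of all genes), and 5 of 8 had groups without overlap (9.29% of all genes). Without wild type replicate 3, 2 of 8 had such a p (5.5% of all genes) and the median was -0.24. Pold2, a regulatory subunit of polymerase delta, which in yeast copies mainly the lagging strand, had the smallest p of all 50 genes. Its intensity was 598, 689, 601 and 597 in Hmga2 KO, against 826, 781 and 901 in wild type, a difference of -0.43 (SE 0.0981, 95% interval -0.65 to -0.21, adjusted p = 0.223, limma). All wild type samples were clear of the Hmga2 KO samples, of which replicate 2 stood above the other 3. The catalytic subunit Pold1 had 709, 673, 607 and 595 in Hmga2 KO, against 768, 731 and 851 in wild type, a difference of -0.28 (adjusted p = 0.324, limma). For polymerase alpha, which with primase makes the first stretch of each new strand, Pola2 had 398, 365, 337 and 364 in Hmga2 KO, against 448, 482 and 534 in wild type. That is a difference of -0.41 (SE 0.101, adjusted p = 0.245, limma), and no wild type sample lay far from the other 2. Its catalytic partner Pola1 had 1264, 1231, 1213 and 1212 in Hmga2 KO, against 1616, 1306 and 1711 in wild type, a difference of -0.32 (adjusted p = 0.305, limma). The 4 Hmga2 KO values of Pola1 were nearly equal, and wild type replicate 2 lay closest to them. Polymerase epsilon copies mainly the leading strand in yeast. Its catalytic subunit Pole had 612, 636, 518 and 517 in Hmga2 KO, against 655, 702 and 867 in wild type, a difference of -0.37 with no overlap. Pole2 differed by -0.35, with wild type replicate 2 inside the Hmga2 KO range. The primase subunits Prim1 and Prim2 were the exceptions in the group, with differences of -0.15 and -0.13 and overlapping samples. Prim1 had 2407, 2381, 2384 and 2027 in Hmga2 KO, against 2288, 2297 and 3167 in wild type, and it was level in all samples but the low Hmga2 KO replicate 4 and the high wild type replicate 3.

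Among the clamp and its loader, 6 of 6 genes had a lower mean in Hmga2 KO, with a median difference of -0.28. Of the 6, 2, Rfc5 and Rfc2, had an unadjusted p under 0.05 (10.3% of all genes). Replication factor C is the complex of 5 subunits that opens the PCNA ring and sets it on DNA. Rfc5 had 602, 697, 591 and 562 in Hmga2 KO, against 761, 845 and 973 in wild type, a difference of -0.48 (SE 0.118, 95% interval -0.75 to -0.22, adjusted p = 0.245, limma). It was the second lowest difference of the 50, with every Hmga2 KO sample below every wild type sample. Rfc2 differed by -0.30, Rfc3 by -0.28 and Rfc4 by -0.27. The largest subunit, Rfc1, differed by -0.15. Pcna, the clamp itself and a common marker of proliferating cells, had 7224, 7285, 6795 and 6379 in Hmga2 KO, against 7258, 6974 and 9413 in wild type. Its difference was -0.18 (95% interval -0.45 to 0.10), and wild type replicate 3 alone lay outside the Hmga2 KO range.

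The single-strand binding and strand-joining genes had 5 of 5 means below wild type, with a median of -0.24. Of the 5, 2 had an unadjusted p under 0.05 (10.3% of all genes). Rpa1, the large subunit of the protein that coats unwound DNA, had 4129.7, 3464, 3463 and 3667 in Hmga2 KO, against 4199, 4170.4 and 5429 in wild type. Its difference was -0.31 (adjusted p = 0.337, limma), with no overlap but with Hmga2 KO replicate 1 next to wild type replicates 1 and 2. The smaller subunits Rpa2 and Rpa3 differed by -0.16 and -0.18. Lig1, the ligase that seals Okazaki fragments, had 1715, 1389, 1348 and 1492 in Hmga2 KO, against 1855, 1580.3 and 2129.8 in wild type, a difference of -0.32 (adjusted p = 0.351, limma). Fen1, the nuclease that trims their flaps, was brighter and differed by -0.24. In Rpa2, Lig1 and Fen1, Hmga2 KO replicate 1 lay above wild type replicate 2.

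The genes of nucleotide synthesis were uneven, with differences from -0.37 for Dut to 0.00 for Rrm2. Of these 5 genes 4 had a mean below wild type and the median was -0.32. Dut and Rrm1 had an unadjusted p under 0.05, as did 10.3% of all genes downwards. Dut, the enzyme that keeps uracil out of DNA by breaking down dUTP, had 4770.0, 4085, 4054 and 3919.8 in Hmga2 KO, against 5405, 4744 and 6171 in wild type, a difference of -0.37 (SE 0.118, adjusted p = 0.297, limma). Hmga2 KO replicate 1 and wild type replicate 2 were nearly equal. Ribonucleotide reductase, which makes deoxyribonucleotides, is built from a large subunit, encoded by Rrm1, and a small one, encoded by Rrm2. Rrm1 had 3431, 4232, 3144 and 3272 in Hmga2 KO, against 3859, 4367 and 5136 in wild type, a difference of -0.34 (adjusted p = 0.346, limma). Rrm2 had 16863, 17551, 16519.5 and 18951 in Hmga2 KO, against 17574, 16626 and 18169 in wild type, with a difference of 0.00 and a 95% interval of -0.21 to 0.21. Its highest sample was Hmga2 KO replicate 4, and Rrm2 was the only one of the 50 genes in which an Hmga2 KO sample was the highest of all 7. Thymidylate synthase, Tyms, differed by -0.23. Thymidine kinase, Tk1, had the largest standard error of the 50 genes (0.232), with 3418, 2527, 2158 and 2839 in Hmga2 KO, against 3895, 2267 and 4305 in wild type. Its difference of -0.32 had a 95% interval of -0.84 to 0.21, and wild type replicate 2 was lower than 3 of the 4 Hmga2 KO samples.

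Of the chromatin assembly and histone mRNA genes 3 of 4 were measured. Chaf1b, a subunit of the factor that places histones on newly copied DNA, had the lowest difference of all 50 genes. Its intensity was 305, 232, 207 and 245 in Hmga2 KO, against 333, 315 and 388 in wild type, a difference of -0.49 (SE 0.141, 95% interval -0.81 to -0.17, adjusted p = 0.289, limma). All Hmga2 KO samples lay below all wild type samples, with Hmga2 KO replicate 1 close to wild type replicate 2. Uhrf1, which helps to copy DNA methylation to the new strand, had 8867, 7405, 7834 and 8604 in Hmga2 KO, against 9924, 6933 and 9463 in wild type, a difference of -0.088 (95% interval -0.40 to 0.23). Slbp, which binds the stem-loop of histone mRNAs, differed by -0.10 (95% interval -0.39 to 0.19). In both, wild type replicate 2 was the lowest of the 7 samples.

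The E2F genes had 4 of 4 means below wild type, with a median of -0.32. E2f1 and E2f8 had an unadjusted p under 0.05 (10.3% of all genes downwards). E2f8, a repressor of the family that acts on S-phase genes, had 2687, 3172, 2268 and 2669.8 in Hmga2 KO, against 3468, 3413 and 3491 in wild type. Its difference was -0.37 (SE 0.118, adjusted p = 0.297, limma) with no overlap, and the wild type samples were almost equal, so replicate 3 did not stand out here. Among females alone the difference of E2f8 was -0.25 (SE 0.128). Within Hmga2 KO its male minus female difference was -0.24, the lowest of the 50 genes. In females alone, 0 of the 4 E2F genes were lower at an unadjusted p under 0.05 (4.64% of all genes). E2f1, an activator, had 1413, 1314, 1201 and 1434 in Hmga2 KO, against 1734, 1429 and 1745 in wild type, a difference of -0.28 (adjusted p = 0.337, limma). Hmga2 KO replicate 4 passed wild type replicate 2 by a few units. The activator E2f2 was the dimmest of the 4, and its samples were scattered. It had 323, 430.0, 432 and 290.3 in Hmga2 KO, against 544, 345 and 535 in wild type, a difference of -0.35. E2f3, the brightest of the 4 and also an activator, had 6904, 6396, 5848 and 6697 in Hmga2 KO, against 7132, 6173 and 6907 in wild type, a difference of -0.06 (95% interval -0.29 to 0.16). Across all 43 genes that were measured and had a promoter in the table, those with an E2F match had a median difference of -0.29 (10 genes, 5 with an unadjusted p under 0.05). Those without had a median of -0.29 as well (33 genes, 13 with such a p). Because only exact letters within 250 bases were searched, these sets do not separate genes with an E2F site from genes without one. Of all genes, 10.3% were lower at such a p.

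**Figure D4:**
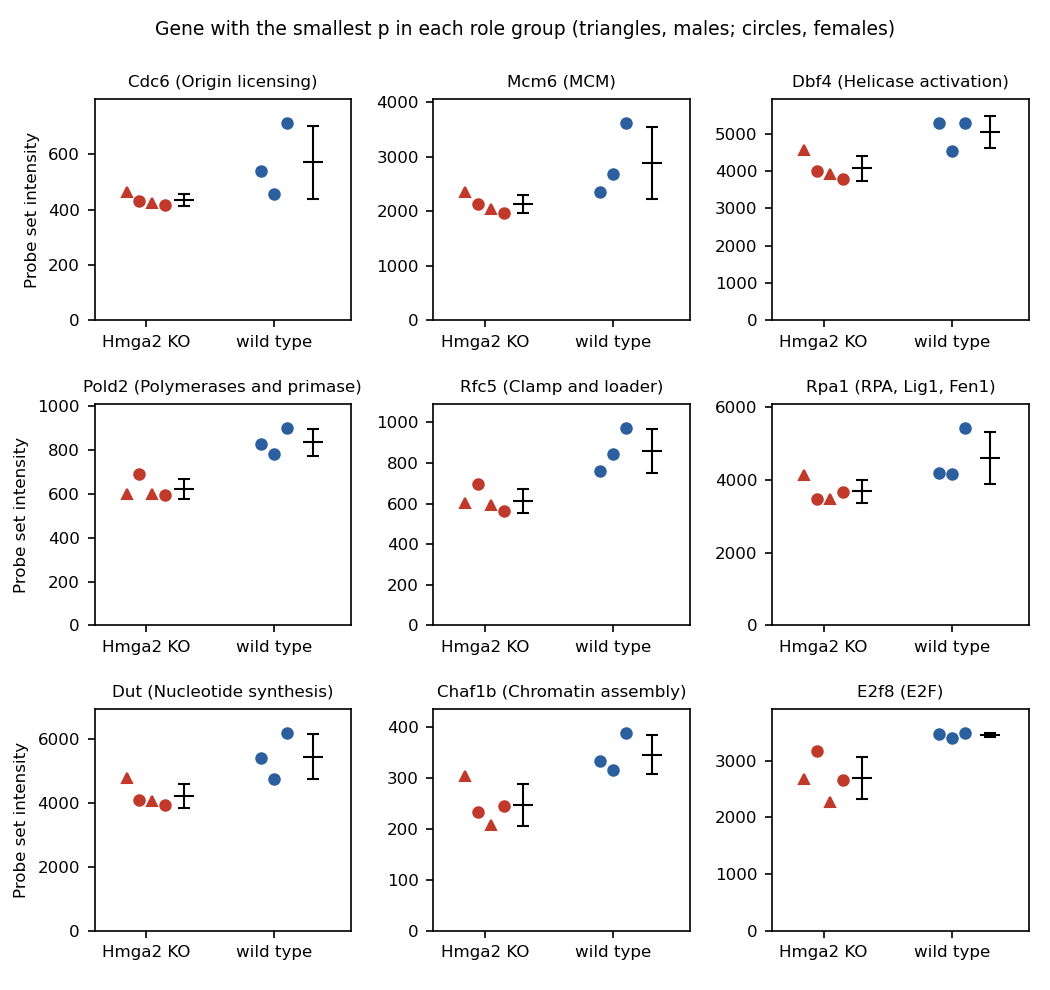
Probe set intensity in each sample (triangles, males; circles, females) for the gene with the smallest p in each of the 9 role groups, with the mean and SD of each genotype as a bar to the right of its points. Red marks Hmga2 KO (n = 4) and blue wild type (n = 3). The groups do not overlap for Mcm6, Pold2, Rfc5, Rpa1, Chaf1b and E2f8, and overlap for Cdc6, Dbf4 and Dut.

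Among the 50 genes the 2 brightest lay closest to 0. The brightest, Rrm2, was the 26th brightest of all 18193 genes and Mcm4 the 289th, and both had differences near 0. Spearman's rho between mean log2 level and difference was 0.44 over the 50 genes and 0.11 over the 10916 genes outside the dimmest 40%, as a description across genes, which share the same 7 arrays. In 4 genes chosen after their values were seen, the dimmer probe sets lay further below 0 than the brightest. Other genes went the opposite way. In Slbp the dimmer ones had -0.01 and 0.04, against -0.10 on the brightest. Cdc45 had -0.003 on one of mean intensity 261, against -0.29. Dut had -0.12 on one of 332, against -0.37, and Cdc7 had 0.02 on one of 162, against -0.14. The 4 genes are as follows. Rrm2 had 0.00 on its probe set of mean intensity 17465, -0.11 on one of 8634 and -0.23 on one of 1480. Mcm4 had -0.04 on its brightest and -0.19 on one of 6298, and Uhrf1 had -0.09 on its brightest and -0.33 on one of 613. Rfc1 had -0.15 on its brightest and -0.30 and -0.32 on the other 2. Of the 50 genes, 40 had more than 1 probe set. Of the 44 other probe sets with a mean intensity of at least 150, 43 had a difference below 0, with a median of -0.27. The 16 dimmer ones included one of Rrm1, of mean intensity 141, with a difference of 0.42. The probe sets used for Mcm4, Mcm5, Mcm6, Mcm7, Pold1, Fen1 and Rrm2 are of the type that Affymetrix marks as open to binding by other transcripts, so part of their signal can come from related sequences.

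**Figure D5:**
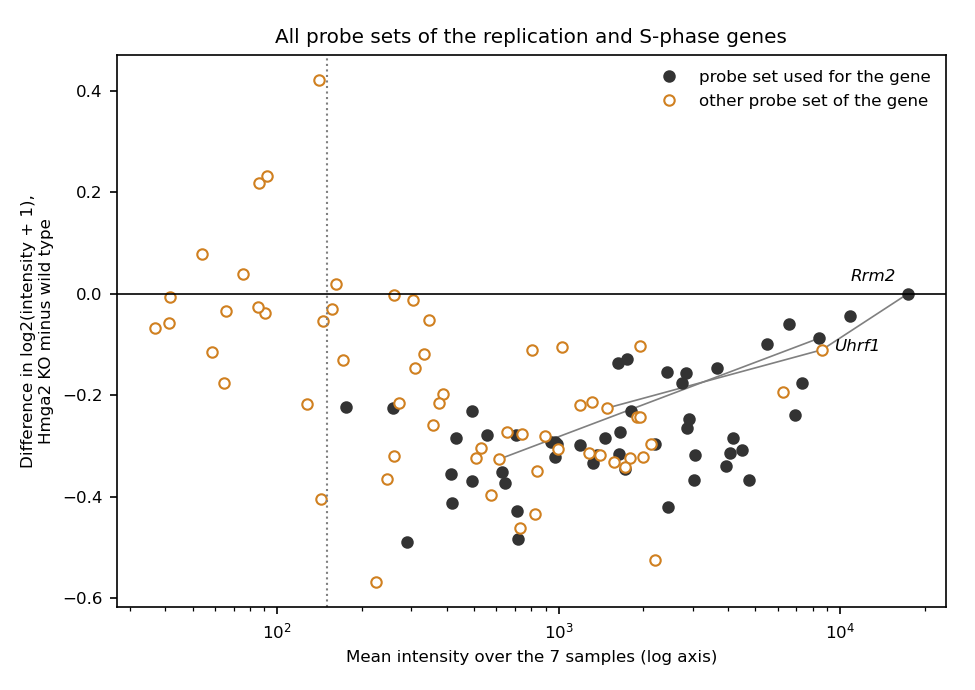
Difference in log2(intensity + 1), Hmga2 KO minus wild type, against the mean intensity over the 7 samples (log axis) for all 110 probe sets of the 50 genes. Filled points are the probe sets used, open points the others, lines join those of Rrm2 and Uhrf1, and the dotted line marks 150. Right of that line 43 of 44 open points lie below 0, and the brightest filled point, Rrm2, lies at 0.00.

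Other genes of replication and S phase, listed apart from the 51, were compared in the same fit. Of 52 measured of 56 listed, 0 passed by limma (0.0275% of all genes). At an unadjusted p under 0.05, 14 were lower and 0 higher, against 10.3% and 2.99% of all genes. A difference below 0 was seen in 45 (67.6% of all genes), and the median was -0.18 (-0.07 for all genes). The 5 with the smallest p were Ccne1, Wdhd1, Dscc1, Pole3 and Topbp1, and the groups did not overlap in any of these 5. Ccne1, cyclin E1, which activates Cdk2 at the entry into S phase, had 1413, 1287, 1021 and 1165 in Hmga2 KO, against 1738, 1636 and 1931 in wild type. Its difference of -0.54 (SE 0.126, adjusted p = 0.227, limma) was lower than that of any of the 50 genes. Wdhd1, which ties polymerase alpha to the helicase, differed by -0.42, and Dscc1, of an alternative clamp loader, by -0.37. Pole3, a small subunit of polymerase epsilon, differed by -0.30, and Topbp1, which takes part in helicase activation, by -0.28. Of mitosis genes, 31 were measured of 32 listed, and 0 passed by limma. At an unadjusted p under 0.05, 8 were lower and 0 higher (10.3% and 2.99% of all genes). Of the 31, 29 had a difference below 0 (67.6% of all genes) and the median was -0.22. The smallest p-values were those of Mybl2 (-0.42), Cdca8 (-0.31), Aurkb (-0.31), Aurka (-0.37) and Foxm1 (-0.34). Mybl2 and Foxm1 are transcription factors of cell cycle genes, and the other 3 encode a subunit and kinases of the mitotic apparatus. Without wild type replicate 3, 3 of the 52 other S-phase genes (5.77%) and 0 of the 31 mitosis genes were lower at such a p. The share of all genes was 5.5%, and the medians were -0.13 and -0.11. In females alone the numbers were 7 (13.5%) and 2 (6.45%), against 4.64% of all genes.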

How the data were processed

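Total RNA was made into biotin-labelled cRNA and hybridised to Affymetrix mouse arrays, following the protocols in the labels. The deposited values were taken as linear probe set intensities, and their median is 150 in every array. Both the scale and the median were read from the values. The sources used here do not give the summarization method or the background correction. The lowest intensity of each array was 33.2 to 36.7. If these values form a floor, differences of dim genes can come out too small, which was not tested. The values were analysed as log2(deposited intensity + 1).

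The platform table paired 34945 of 45101 probe sets with a single gene, 932 with several and 9160 with none, and 64 were controls. RefSeq (GRCm38.p6) held the identifier of 34741, with 0 symbols changed, while 204 went by the table's symbol. The brightest probe set on average stood for each of the 18193 genes.

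Groups follow the sample titles. The genotypes were tested with limma 3.58.1 in R 4.3.3 (lmFit, eBayes, no covariate), and p-values were adjusted by Benjamini-Hochberg across every gene tested, with 0.05 as the threshold. For the sexes within Hmga2 KO, a fit of 3 groups was used. The labelled sex was checked and matched in 7 of 7 samples. The 21 pairs of samples differed by a median absolute log2 value of 0.145 to 0.235, so none held identical values.

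The genes, their role groups and the other lists were chosen with earlier results of these data known. All 51 genes are named, and of the other S-phase and the mitosis genes the 5 with the smallest p in each. The fit was tested on simulated data. As alternatives, sex was added as a covariate, males were left out, the replicate number served as a block, single samples were left out, arrays were quantile normalized, genes under a mean intensity of 158 (the dimmest 40%) were dropped, the mean or most variable probe set was taken, and a pseudocount of 16, a trended robust prior or array weights were applied.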

Additional observations from a re-analysis of the deposited data

Results flagged for a closer look

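In 3 of the 61 genes examined, 1 Hmga2 KO sample stood far from the other 3. The gap to its nearest neighbour took up most of the group's range, both taken on the log2 scale. Chance gives such a gap in about 1 in 20 groups. Prim1 had 2407, 2381 and 2384 in Hmga2 KO replicates 1 to 3 and 2027 in replicate 4 (gap of 0.94 of the range). Mcm7 had 2082, 2030 and 2064 in replicates 1 to 3 and 1794 in replicate 4 (gap of 0.83 of the range). Pold2 had 689 in replicate 2 and 598, 601 and 597 in the others (gap of 0.95 of the range).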

How the results depend on the processing

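No replication or S-phase gene passed an adjusted p of 0.05 by limma under any of the 17 alternatives. The number with an unadjusted p under 0.05 was 20, where 10.3% of all genes were lower at such a p. It was 13 with sex as a covariate (5.13% of all genes), 13 in females alone (4.64%) and 9 with quantile normalization (6.47%). When 1 sample was left out it was 5 to 28 (5.5% to 13.8% of all genes). The number without overlap between the genotypes was 12 (9.29% of all genes), a count added after the data were seen. It was 28 in females alone (16.1% of all genes) and 12 to 33 when 1 sample was left out (10.6% to 22.9%). The number of genes below the all-gene median stayed within 43 to 49 of 50, and the median relative to all genes within -0.28 to -0.14. Over all genes, 5 passed, and 2 to 17 when 1 sample was left out. For male against female Hmga2 KO samples 7 genes passed, 3 when the dimmest 40% of genes were left out, where fewer genes are tested.

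The deviations of same-numbered samples correlated at 0.31 and 0.37 for numbers 1 and 2, the highest of all pairs across the genotypes, and at -0.18 for number 3. As number 3 did not follow, the numbers were not taken to pair the samples. These numbers are those of the titles. Other labels number the samples differently, and for Hmga2 KO replicate 2 they disagree with each other. With a replicate block, which leaves out Hmga2 KO replicate 4, 99 of all genes and 0 of the 50 passed, and 11 of the 50 were lower at an unadjusted p under 0.05 (8.67% of all genes).

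For 43 of the 50 genes the difference was below 0 under every alternative. Rrm2, at 0.00, was -0.040 with the replicate block, -0.11 with the mean of its probe sets, -0.23 with its most variable one, -0.0012 with array weights and -0.040 to 0.030 when 1 sample was left out. Mcm4 was 0.0030 with quantile normalization and -0.16 to 0.040 when 1 sample was left out. That range was -0.25 to 0.010 for Uhrf1, -0.24 to 0.0077 for Slbp and -0.23 to 0.0011 for Prim1. With the most variable probe set the difference was 0.039 for Slbp, 0.019 for Cdc7 and 0.42 for Rrm1. The causes were not tested. The number of arrays limits all of these values.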
